A study of Mus musculus with 6 samples.

Results

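The genes described here are 9 genes of the hair cell ribbon synapse, Otof, Slc17a8, Cacna1d, Cacnb2, Cabp2, Ctbp2, Bsn, Pclo and Rims2, out of 39179 genes listed in the data. They were chosen by symbol, and each symbol was matched to 1 Ensembl gene. Their mRNA was measured by RNA-seq in the sensory epithelium of 2 inner ear organs, the cochlea for hearing and the vestibule for balance. All libraries came from newborn (P0) wild-type mice of the strain C57Bl/6J, with males and females pooled, so that the tissue is the difference between the groups that the labels give. There were 3 libraries from the cochlea and 3 from the vestibule, with at least 20 organs pooled and 450 ng of RNA in each. The study's methods give 20 inner ears of 10 mice and do not say whether the 3 libraries of a tissue came from separate pools, so p-values measure the spread between these libraries, which may be technical.

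Hair cells turn movement into an electrical signal and pass it to nerve fibres by releasing glutamate. At their release site a ribbon, built mainly of the protein RIBEYE, holds vesicles above L-type calcium channels of the Cav1.3 kind, and bassoon and piccolo help to anchor and organise it. Vesicles are filled with glutamate by the transporter VGLUT3 and fuse with the help of otoferlin, a calcium-binding ferlin, and loss of either protein causes deafness. At birth these synapses are still maturing.

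Each library held 24464483 to 33664793 counts on genes, so that 1 CPM (a gene's count scaled to the counts on genes of its library) stood for 24.5 to 33.7 counts. Libraries of the same tissue differed by more than sampling noise, with a chi-square per degree of freedom of 31.0 to 111 where sampling alone gives about 1. All 12 hair cell markers examined were found in all 6 libraries, with a summed level of 375 to 424 CPM in the cochlea and 444 to 523 CPM in the vestibule. The sum depended on the markers taken. For the 6 of them used for scaling below it was 149 to 219 CPM in the cochlea and 330 to 410 CPM in the vestibule. By the test described next, 3 of these 12 markers were up-regulated in the vestibule and 3 in the cochlea. The libraries held other cells of the inner ear as well, and in bulk tissue fewer cells of a type and less RNA per cell cannot be told apart. Genes of macrophages, endothelium and melanocytes were higher in the vestibule, with 4 of 4, 3 of 4 and 4 of 4 markers called, as were 3 of 4 markers of dark cells and stria, 3 of 6 of Schwann cells and 2 of 5 of mesenchyme, and 6 of 9 supporting cell markers were higher in the cochlea. Cochlea 3 stood apart in 5 skeletal muscle markers, which summed to 2.90, 5.83 and 231 CPM in cochlea 1, 2 and 3 and to 6.32 to 21.9 CPM in the vestibule. The part of these cells in the results below was not tested.

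Differential expression (DE) was tested with edgeR's quasi-likelihood test on the counts over the 14723 genes that reached 1 CPM in 3 libraries, and a gene is called DE at an FDR of 0.05. Log2 fold changes are vestibule minus cochlea and have a standard error (SE). Of the 9 genes 8 passed the filter, and Cabp2 did not, because it had no counts. Otof, Slc17a8 and Ctbp2 were up-regulated in the vestibule, where 15.8% of all tested genes were called in that direction. Rims2 was up-regulated in the cochlea, where 11.6% of all tested genes were called. Cacna1d, Cacnb2, Bsn and Pclo did not pass the test. The median log2 fold change of the 8 genes was 0.52, and that of all tested genes was 0.00. The libraries of the tissues did not overlap for 4 of the 8 genes, the same 4 that were called, while they did not overlap for 41.8% of all tested genes. The vestibule lay above in 3 of the 8, against 27.5% of all tested genes, and the cochlea above in 1 of the 8, against 14.3%. With the study's other threshold, an FDR of 0.1 and a fold change of 1.3, Cacna1d was called as well, and 33.6% of all tested genes.

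**Figure D1:**
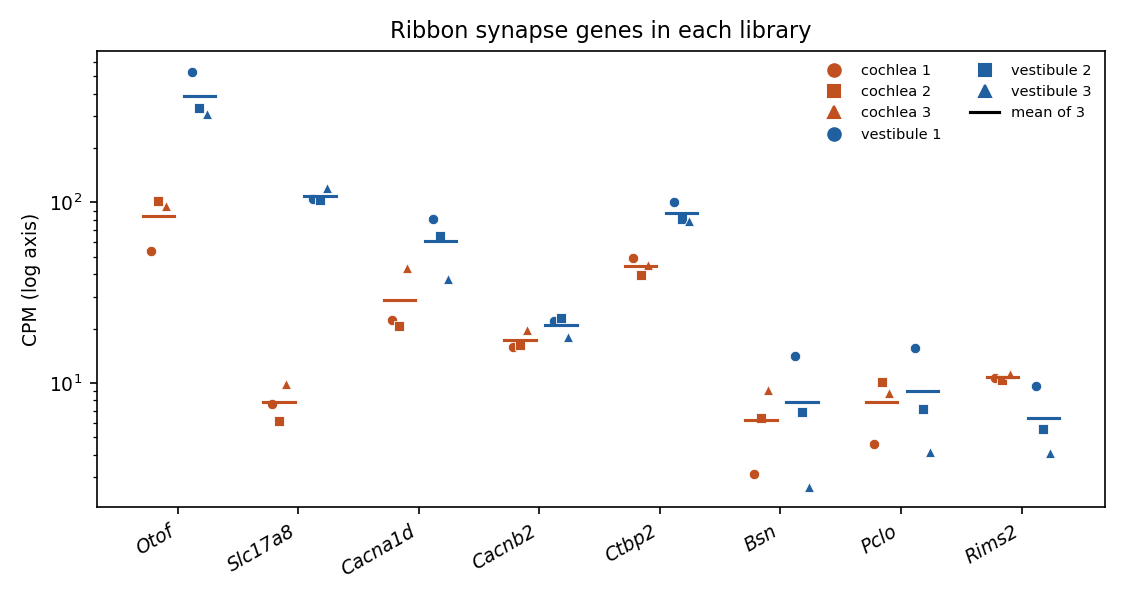
CPM on a log axis for the 8 ribbon synapse genes with counts, with 1 point for each of the 3 cochlear and 3 vestibular libraries and a line at each tissue mean. Otof, Slc17a8 and Ctbp2 have all vestibular points above the cochlear ones, Rims2 has all of them below, and the points of Cacna1d, Cacnb2, Bsn and Pclo overlap between the tissues.

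Otof encodes otoferlin, the calcium sensor that hair cells use for vesicle fusion and refilling of the release site. The gene lies on the minus strand of chromosome 5 from 30367062 to 30461932 (GRCm38). Its level was 53.5, 102 and 95.6 CPM in cochlear libraries 1, 2 and 3, and 530.5, 332 and 307 CPM in the vestibular ones. Each vestibular library was above each cochlear library, with cochlea 1 the lowest and vestibule 1 the highest of their tissues. The log2 fold change was 2.08 (SE 0.286), a 4.24-fold higher level in the vestibule, with an adjusted p of 0.000814 by edgeR. Leaving out any library kept it between 1.83 and 2.28.

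Among the other ferlins, which are membrane proteins with several calcium-binding C2 domains, changes went both ways. Myof, the ferlin of muscle and membrane repair, was up-regulated in the vestibule with a log2 fold change of 0.86 (SE 0.170, adjusted p = 0.00571 by edgeR). Fer1l6 was up-regulated in the cochlea by 8.23-fold, with 15.4 to 20.1 CPM in the cochlea and 2.22 to 2.76 CPM in the vestibule. Dysf and Fer1l5 did not pass the test, at log2 fold changes of 0.02 and 0.31, and Fer1l4 was below the filter. Measured as RPKM (CPM per kilobase of gene, a level per length), Otof made up 41.3%, 58.6% and 49.8% of the ferlins in the cochlear libraries and 79.9%, 73.5% and 77.7% in the vestibular ones. The share was higher in each vestibular library, by 27.1 percentage points between the means. The exact permutation test gave p = 0.1, the smallest value that 3 libraries against 3 allow, and 0.14 after adjustment over the 7 shares tested.

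Slc17a8 encodes VGLUT3, which loads glutamate into the vesicles of hair cells. It lies on the minus strand of chromosome 10 from 89574020 to 89621253 (GRCm38). The cochlear libraries had 7.60, 6.18 and 9.85 CPM and the vestibular libraries 105, 102 and 120.1 CPM. The groups were far apart, and the spread within the vestibule was small (109 ± 9.54 CPM, SD, n = 3). With a log2 fold change of 3.68 (SE 0.193, adjusted p = 5.79e-06 by edgeR) it changed more than any other of the 9 genes, a 12.8-fold higher level in the vestibule. RefSeq lists 2 transcript starts for this gene, and the sequence around each is shown because this gene differs most between the tissues. Each window runs from 250 bases before the start to 50 after it, on the minus strand of GRCm38.p6, at chr10:89621200-89621499 for the upstream start and chr10:89599766-89600065 for the downstream start. The upstream start belongs to the transcript with the longer coding sequence, 1803 bases against 1251 bases in GENCODE. Capitals mark the motifs CAGCTG and CAGATG, E-boxes of the kind that basic helix-loop-helix factors bind, and TATAAA, each searched on both strands.
Slc17a8 upstream start: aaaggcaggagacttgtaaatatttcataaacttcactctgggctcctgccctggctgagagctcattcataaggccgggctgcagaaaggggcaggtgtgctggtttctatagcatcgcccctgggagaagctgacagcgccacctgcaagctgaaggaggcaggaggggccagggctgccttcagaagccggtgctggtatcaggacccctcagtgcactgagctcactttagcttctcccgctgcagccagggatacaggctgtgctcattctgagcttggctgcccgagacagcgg
Slc17a8 downstream start: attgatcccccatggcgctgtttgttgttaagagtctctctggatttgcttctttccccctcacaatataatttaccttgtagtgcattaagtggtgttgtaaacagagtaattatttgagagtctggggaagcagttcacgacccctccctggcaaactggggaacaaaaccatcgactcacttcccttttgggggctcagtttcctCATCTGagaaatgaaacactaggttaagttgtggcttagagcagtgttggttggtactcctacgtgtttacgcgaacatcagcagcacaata
The upstream window held none of the 3 motifs, and the downstream window held CAGATG, read as CATCTG on this strand, from 42 to 37 bases before the start. Of all 32851 RefSeq promoter windows of this length 17.2% held CAGATG, 16.3% CAGCTG and 13.6% TATAAA on either strand. The counts are of whole genes and do not tell which start was used.

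The 3 vesicular glutamate transporters showed opposite patterns. Slc17a7, which encodes VGLUT1, the transporter of many central and spiral ganglion neurons, had 22.5, 15.4 and 4.07 CPM in the cochlea and 0.861, 0.584 and 0.432 CPM in the vestibule. It was up-regulated in the cochlea with a log2 fold change of -4.58 (SE 0.630, adjusted p = 0.000814 by edgeR), and its 3 cochlear libraries were spread widely, with cochlea 3 the lowest. The summed level of 10 neuron markers was likewise lowest in cochlea 3 within that tissue, at 678, 607 and 297 CPM in cochlea 1, 2 and 3 and 407, 176 and 200.3 CPM in the vestibule. Of these neuron markers 5 were up-regulated in the cochlea and none in the vestibule by edgeR. Slc17a6, which encodes VGLUT2 of other glutamatergic neurons, did not pass the test at a log2 fold change of 0.08 (SE 0.437). Of the summed RPKM of the 3 transporters, Slc17a8 held 12.8%, 16.1% and 46.4% in the cochlear libraries and 85.8%, 93.0% and 92.1% in the vestibular ones. Cochlea 3 thus had the highest cochlear share, and all vestibular shares were above it (exact permutation p = 0.1, the smallest possible, adjusted 0.14).

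**Figure D2:**
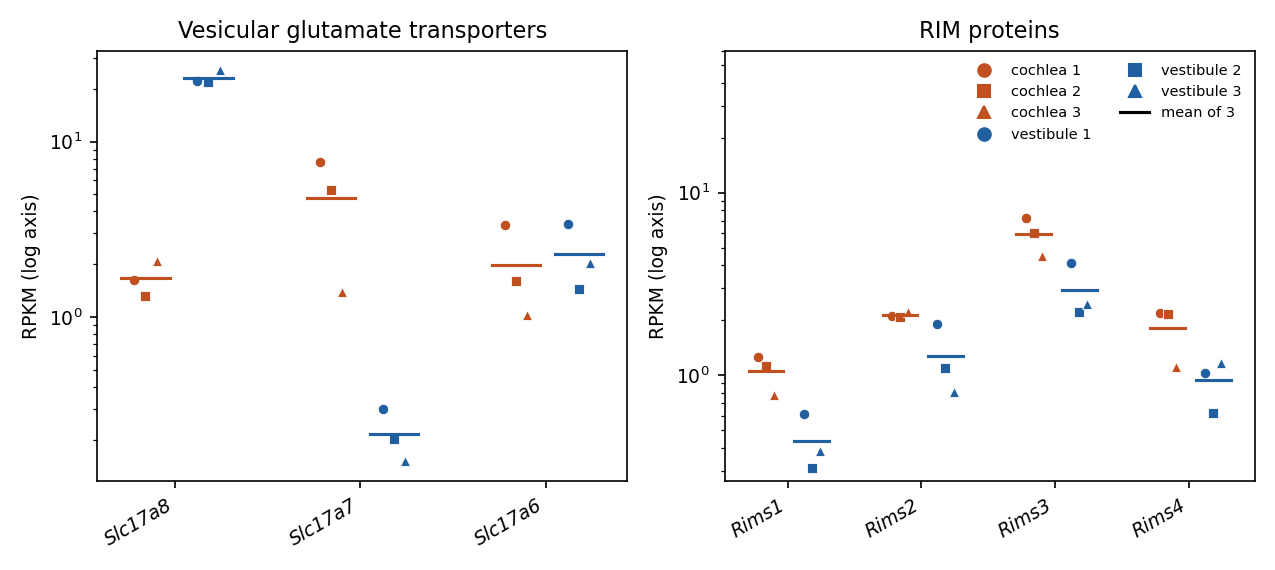
RPKM on a log axis for the 3 vesicular glutamate transporters (left) and the 4 RIM genes (right), with 1 point per library and a line at each tissue mean. Slc17a8 lies between 1.31 and 2.09 RPKM in the cochlea and between 21.8 and 25.5 RPKM in the vestibule, Slc17a7 lies higher in the cochlea, and the means of all 4 RIM genes are higher in the cochlea.

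Cacna1d encodes the pore of Cav1.3, the calcium channel that triggers release in hair cells. It lies on the minus strand of chromosome 14 from 30039939 to 30491455 (GRCm38), and Chdh and Dcp1a overlap it on the other strand. Its level was 22.2, 20.7 and 43.6 CPM in the cochlea and 80.9, 65.4 and 37.8 CPM in the vestibule. The tissues overlapped, since vestibule 3 was below cochlea 3, the library with the highest muscle markers. The log2 fold change of 0.96 (SE 0.318) did not pass the test, with an adjusted p of 0.0538 by edgeR. It passed without cochlea replicate 3, at 1.36 (adjusted p = 0.00588), without vestibule replicate 3, at 1.21 (adjusted p = 0.0217), and in 7 of the 15 alternatives in all (other scalings, filters and tools, a replicate block, a length correction and each library left out), and it was higher in the vestibule in all 15, with adjusted p-values between 0.00588 and 0.19.

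Cacnb2 encodes the auxiliary beta2 subunit, which brings Cav1.3 to the membrane of hair cells. It lies on the plus strand of chromosome 2 from 14603088 to 14987908 (GRCm38). The cochlear libraries had 15.9, 16.2 and 19.6 CPM and the vestibular libraries 21.95, 22.9 and 18.1 CPM. These ranges overlapped, and the log2 fold change of 0.16 (SE 0.147, adjusted p = 0.45 by edgeR) was close to its SE. Cacnb2 held a small part of the beta subunits per length, 5.86% ± 0.488 of the RPKM in the cochlea and 8.04% ± 0.410 in the vestibule (SD, n = 3). That share was higher in all 3 vestibular libraries (exact permutation p = 0.1, the smallest possible, adjusted 0.14). The difference of 2.19 percentage points depended on the scale, and was 1.86 with GENCODE exon lengths and 4.60 with CPM. Cacnb3, the beta subunit with the highest level per length, stood at 27.9 ± 2.36 RPKM in the cochlea and 23.6 ± 3.32 RPKM in the vestibule (SD, n = 3), and neither it nor Cacnb1 and Cacnb4 passed the test.

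Of the 9 other pore subunits of voltage-gated calcium channels, 6 passed the filter and 1 was called. Cacna1e, the R-type pore, was up-regulated in the vestibule with a log2 fold change of 1.64 (SE 0.524, adjusted p = 0.0475 by edgeR), although its libraries overlapped, with 31.7 CPM in cochlea 3 and 27.1 CPM in vestibule 3. Cacna1a, Cacna1b, Cacna1c, Cacna1g and Cacna1h did not pass, at log2 fold changes between -0.47 and 0.88. Cacna1d itself made up 23.3% ± 2.07 of the RPKM of the 7 tested pores in the cochlea and 30.2% ± 1.73 in the vestibule (SD, n = 3). Its share was higher in each vestibular library, which was not so for its level (exact permutation p = 0.1, the smallest possible, adjusted 0.14). Among the alpha2delta subunits Cacna2d4 was up-regulated in the vestibule from a low level, with 0.376 to 0.491 CPM in the cochlea and 1.57 to 2.17 CPM in the vestibule (log2 fold change 1.97, SE 0.280). Cacna2d1, Cacna2d2 and Cacna2d3 stood at 15.8 to 45.6 CPM on average in a tissue and did not pass.

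Cabp2 encodes a calcium-binding protein that slows the inactivation of Cav1.3 in hair cells. It lies on the plus strand of chromosome 19 from 4081578 to 4087340 (GRCm38) and had 0 counts in each of the 6 libraries. Among 167316146 counts in all, this allows a level of up to 0.0179 CPM over the libraries together, taking 3 counts as the upper limit, and of up to 0.0891 to 0.123 CPM in a single library, for counting error only. Its relatives Cabp4 and Cabp5 also had 0 counts in all libraries. Cabp7 was up-regulated in the vestibule with a log2 fold change of 2.31 (SE 0.272, adjusted p = 0.000364 by edgeR) from 0.347 to 0.479 CPM in the cochlea to 1.92 to 2.61 CPM. Cabp1 and Caln1 did not pass the test, at log2 fold changes of -0.75 (SE 0.508) and 0.66 (SE 0.417).

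Ctbp2 encodes both the transcriptional co-repressor CtBP2, found in most cells, and RIBEYE, the scaffold protein of the ribbon. The gene lies on the minus strand of chromosome 7 from 132987563 to 133124354 (GRCm38), and the gene model of Fgfr2 overlaps it on the same strand. Its level was 49.3, 39.9 and 44.8 CPM in the cochlea and 100.5, 81.4 and 78.6 CPM in the vestibule. Each vestibular library was above each cochlear one, and the spread within the cochlea was small. The log2 fold change was 0.84 (SE 0.130, adjusted p = 0.00155 by edgeR), a 1.79-fold higher level in the vestibule, and it stayed between 0.77 and 0.91 with any library left out. GENCODE gives the gene 3 complete coding transcripts, of which 2 start at 133123166 and 133123367 and have coding sequences of 1260 and 1335 bases. The other starts at 133015248, far inside the gene, and has a coding sequence of 2964 bases, the long form with the RIBEYE part. The RefSeq window around that inner start, at chr7:133015198-133015497 on the minus strand of GRCm38.p6, is shown because the deposited count adds the transcripts of all starts and cannot separate RIBEYE from CtBP2. Capitals mark the same 3 motifs as above.
Ctbp2 inner start: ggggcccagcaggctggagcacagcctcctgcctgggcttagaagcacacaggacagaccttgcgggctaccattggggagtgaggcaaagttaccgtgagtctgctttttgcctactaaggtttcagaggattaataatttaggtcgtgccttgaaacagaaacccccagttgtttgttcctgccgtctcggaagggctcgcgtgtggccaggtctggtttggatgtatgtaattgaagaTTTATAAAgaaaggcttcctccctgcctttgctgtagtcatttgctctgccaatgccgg
The window held TATAAA from 7 to 2 bases before the start, overlapping a match on the other strand from 9 to 4 bases before it, and neither E-box. Ctbp1, the paralogue that has no ribbon form, did not pass the test, with 243 ± 3.82 CPM in the cochlea and 224 ± 11.95 CPM in the vestibule (SD, n = 3), although all its vestibular libraries were below the cochlear ones. Of the RPKM of the pair, Ctbp2 held 6.33% ± 0.593 in the cochlea and 12.5% ± 2.08 in the vestibule (SD, n = 3), without overlap (exact permutation p = 0.1, the smallest possible, adjusted 0.14). The difference of 6.19 percentage points depended on the length used, and was 10.2 with GENCODE exon lengths and 12.4 with CPM.

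Bsn and Pclo encode bassoon and piccolo, very large related scaffold proteins of the active zone. Bsn lies on the minus strand of chromosome 9 from 108096022 to 108190384 and Pclo on the plus strand of chromosome 5 from 14514918 to 14863459 (GRCm38). Bsn had 3.15, 6.42 and 9.14 CPM in the cochlea and 14.1, 6.89 and 2.67 CPM in the vestibule. Pclo had 4.62, 10.1 and 8.76 CPM in the cochlea and 15.7, 7.16 and 4.12 CPM in the vestibule. For both genes vestibule 1 was the highest of all libraries and vestibule 3 the lowest, and the tissues overlapped fully. The log2 fold changes were 0.19 (SE 0.541, adjusted p = 0.825) for Bsn and 0.05 (SE 0.455, adjusted p = 0.952) for Pclo by edgeR. Without vestibule replicate 1 they were -0.47 and -0.56, so no direction can be given for these 2 genes.

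The spread between libraries of the same tissue differed with the length of transcripts. The exons of Bsn and Pclo cover 15.9 and 22.5 kb, the longest of the 9 genes, and over the 6 libraries their profiles lay closest of all pairs (root mean square difference of centred log2 CPM 0.29). All genes over 12 kb had a median deviation from their tissue mean of -0.14, -0.06 and 0.23 on the log2 scale in cochlea 1, 2 and 3, and of 0.29, 0.02 and -0.27 in vestibule 1, 2 and 3. Bsn deviated by -0.85, 0.17 and 0.68 in the cochlea and by 1.14, 0.11 and -1.25 in the vestibule. Pclo deviated by -0.68, 0.45 and 0.24 in cochlea 1, 2 and 3 and by 1.02, -0.11 and -0.91 in vestibule 1, 2 and 3. Bsn was thus on the other side of zero from the long genes in cochlea 2, and Pclo in cochlea 2 and vestibule 2. Genes up to 1 kb deviated the other way in all libraries except vestibule 2, with a median of -0.22 in vestibule 1 and 0.20 in vestibule 3. Cacna1d (12.6 kb) deviated to the same side as the median of the long genes in all 6 libraries, at -0.29, -0.39 and 0.68 in cochlea 1, 2 and 3 and 0.47, 0.16 and -0.63 in vestibule 1, 2 and 3. With the length trend within each tissue removed, an alternative chosen after seeing the data and one that lowers the spread by its construction, Bsn and Pclo stood at 0.16 (SE 0.436) and -0.01 (SE 0.341) and still did not pass, while Cacna1d passed at 0.97 (SE 0.238, adjusted p = 0.0148 by edgeR).

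**Figure D3:**
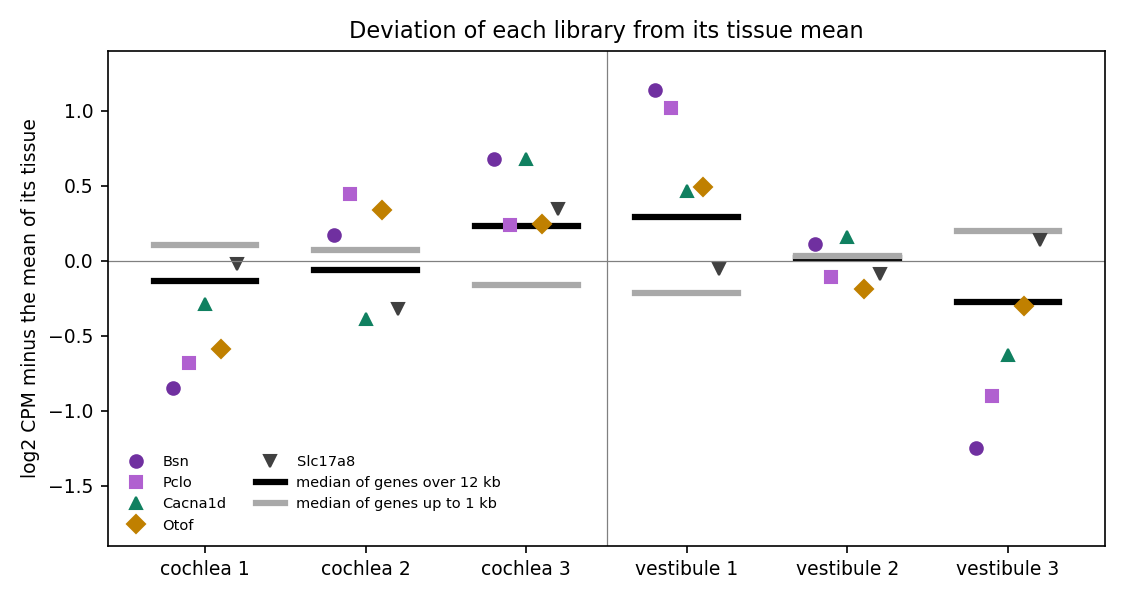
Deviation of log2 CPM from the mean of its tissue for 5 ribbon synapse genes in each library, with bars for the median of all genes over 12 kb (black) and up to 1 kb (grey). Bsn, Pclo and Cacna1d lie on the same side of zero as the long genes in cochlea 1, cochlea 3, vestibule 1 and vestibule 3, while Slc17a8 stays within 0.35 of zero.

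Rims2 encodes RIM2, an active zone protein that increases the number of calcium channels at hair cell synapses. It lies on the plus strand of chromosome 15 from 39198261 to 39684372 (GRCm38). Its level was 10.6, 10.45 and 11.2 CPM in the cochlea and 9.56, 5.53 and 4.08 CPM in the vestibule. The cochlear libraries were almost equal, and all 3 vestibular libraries were below them, vestibule 1 by little. The log2 fold change of -0.88 (SE 0.273, adjusted p = 0.0435 by edgeR) made it the only one of the 9 genes up-regulated in the cochlea, by 1.84-fold. The call depended on the setting and was lost in 8 of the 15 alternatives, among them without vestibule replicate 3 (-0.65, adjusted p = 0.102), without vestibule replicate 2 (-0.76, adjusted p = 0.17) and without any of the cochlear replicates (adjusted p between 0.0629 and 0.115), although the direction held in all 15.

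The other RIM genes, which are expressed in neurons, were also up-regulated in the cochlea. Rims1 had a log2 fold change of -1.39 (SE 0.299), Rims3 of -1.14 (SE 0.253) and Rims4 of -1.08 (SE 0.341), with adjusted p-values of 0.00854, 0.0101 and 0.0463 by edgeR. The libraries of Rims4 overlapped between the tissues, with 5.475 CPM in cochlea 3 and 5.77 CPM in vestibule 3. The cochlear levels of Rims1, Rims3 and Rims4 were lowest in cochlea 3, at 5.34 CPM for Rims1 against 7.67 and 8.58 CPM, as was the sum of the neuron markers, whereas Rims2 was at its highest there. Of the 10 neuron markers all but Isl1 were lowest in cochlea 3 among the cochlear libraries. Isl1, a transcription factor that was also called in the cochlea, had its highest value there as Rims2 did, at 112, 117 and 122 CPM in cochlea 1, 2 and 3. In the vestibule vestibule 1 was the highest for Rims2, for the sum of the neuron markers and for long genes. The part of neurons in the tissue difference of Rims2 was not tested. As a share of the RIM genes per length, Rims2 was at 20.2% ± 5.01 in the cochlea and 22.5% ± 4.92 in the vestibule (SD, n = 3), with overlapping libraries (exact permutation p = 0.8).

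Levels can be set beside each other only per length, and the order of the 8 genes by mean RPKM differed between the tissues. In the cochlea Otof was the highest at 10.6 ± 3.33 RPKM, and Ctbp2 followed at 7.20 ± 0.764 RPKM with an overlap of their libraries (SD, n = 3). Below them lay Cacna1d (3.13 RPKM), Rims2 (2.13 RPKM), Cacnb2 (1.92 RPKM) and Slc17a8 (1.67 RPKM), and the libraries of the last 3 overlapped, so that places 4 to 6 could not be ordered. Pclo (0.410 RPKM) and Bsn (0.392 RPKM) were the lowest and could not be ordered. In the vestibule Otof was at 49.4 ± 15.6 RPKM, above 92.3% of the genes in the deposited matrix, against 64.4% in the cochlea. Slc17a8 came next at 23.2 ± 2.02 RPKM, ahead of Ctbp2 at 13.99 ± 1.92 RPKM (SD, n = 3), Cacna1d at 6.66 RPKM and Cacnb2 at 2.34 RPKM, and none of these neighbours overlapped. Rims2 (1.27 RPKM) lay below Cacnb2 without overlap, and it overlapped with Bsn (0.497 RPKM), as Bsn did with Pclo (0.470 RPKM). By its mean Slc17a8 was at place 6 in the cochlea and at place 2 in the vestibule. The cochlear place rests on the gene lengths behind the deposited RPKM, which for Rims2, Cacna1d and Cacnb2 (5.03, 9.22 and 8.98 kb) are shorter than the GENCODE exons (10.4, 12.6 and 13.2 kb). With the GENCODE lengths, an alternative chosen after seeing the data, Slc17a8 was at place 4 in the cochlea (1.67 CPM per kilobase), ahead of Cacnb2 (1.302) and Rims2 (1.03), and still at place 2 in the vestibule.

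To compare the genes within the hair cell transcripts of each library, their CPM was divided by the geometric mean CPM of 6 hair cell markers, Pou4f3, Gfi1, Myo7a, Myo15, Lhfpl5 and Pcdh15. These are a choice from the 12 markers, made with earlier results of these data known, and of the other 6 Calb2, Pvalb and Chrna9 were up-regulated in the cochlea and none in the vestibule. That mean was 25.9 ± 5.32 CPM in the cochlea and 48.4 ± 7.30 CPM in the vestibule (SD, n = 3), 1.88-fold higher. Of the 6 markers Pou4f3, Gfi1 and Myo15 were up-regulated in the vestibule, with log2 fold changes of 0.65, 2.19 and 2.08, and the other 3 did not pass. Relative to them Slc17a8 remained higher in every vestibular library, by 2.90 on the log2 scale, and so did Otof, by 1.32. Ctbp2 differed by 0.04, with overlapping libraries (exact permutation p = 1), and Cacna1d by 0.19 (p = 0.6). Rims2 was lower in every vestibular library, by 3.37-fold, and so was Cacnb2, by 1.55-fold. Bsn and Pclo were 1.68-fold and 1.81-fold lower on average with overlapping libraries. For the 4 genes without overlap the exact permutation test over libraries gave p = 0.1, the smallest it can give, and 0.2 after adjustment over the 8 genes.

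This scale depends on the markers. All 12 hair cell markers were also used in place of 6, which adds among others Calb2 and Pvalb (83.1 and 64.0 CPM on average in the cochlea, 21.3 and 13.2 CPM in the vestibule). Calb2 had 115, 92.8 and 41.7 CPM and Pvalb 88.9, 72.6 and 30.4 CPM in cochlea 1, 2 and 3. Both were lowest in cochlea 3 within that tissue, as was the sum of the neuron markers. Of the other added markers Atoh1 and Chrna9 were lowest and Barhl1 and Chrna10 highest there. The part of neurons in this scale was not tested. With the 12 markers the differences were 3.69 for Slc17a8, 2.11 for Otof, 0.83 for Ctbp2 and -0.97 for Rims2, and those of Cacnb2 and Bsn changed sign to 0.16 and 0.04.

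**Figure D4:**
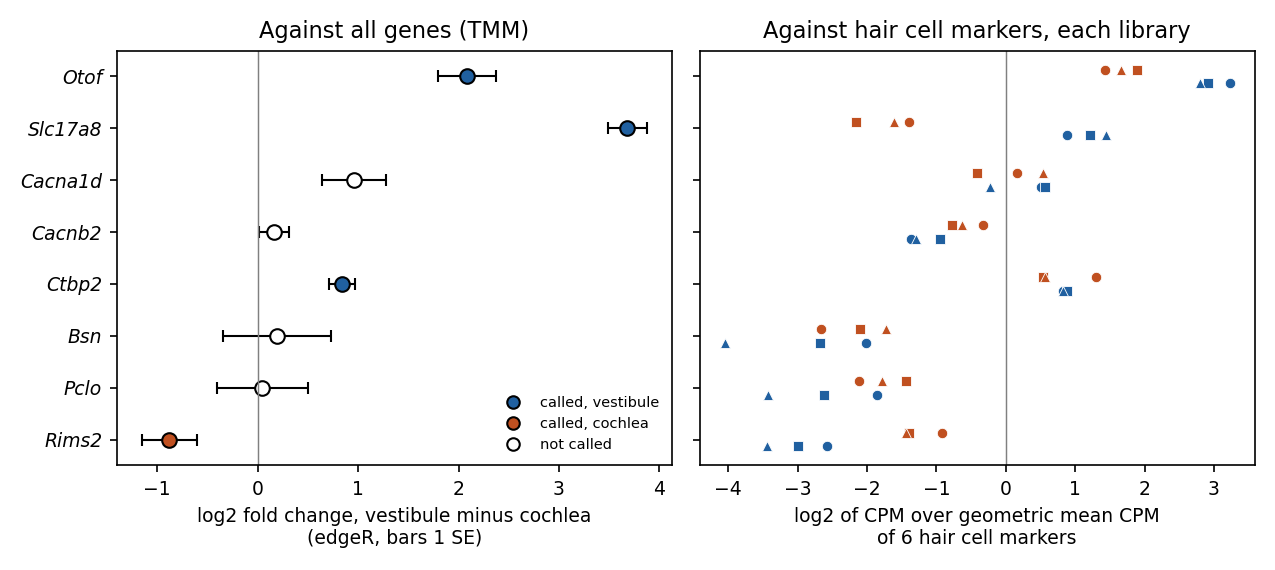
Left, log2 fold change with 1 SE for the 8 genes from edgeR, filled where the gene was called. Right, log2 ratio of each gene to the geometric mean of 6 hair cell markers in each library (cochlea orange, vestibule blue, replicates 1, 2 and 3 as circle, square and triangle). Slc17a8 and Otof (vestibule higher) and Rims2 (cochlea higher) are called on the left and do not overlap on the right, Ctbp2 is called on the left only, and Cacnb2 does not overlap on the right only, with the cochlea higher.

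Around the 9 genes, 70 further genes of the synapse were grouped into 5 lists, of which 69 were matched and 64 tested. Of these 9 were up-regulated in the vestibule, 13 were up-regulated in the cochlea and 42 did not pass, and their median log2 fold change was 0.01. With 1 library left out the cochlear count lay between 5 and 19, at 8 without cochlea 2 and 5 without vestibule 2, and the vestibular count between 5 and 9, at 5 without cochlea 1, without cochlea 2 or without vestibule 2. The share called, 22 of 64, stands beside 27.4% of all tested genes in either direction. By direction, the 9 of 64 in the vestibule stand beside 15.8% of all tested genes and the 13 of 64 in the cochlea beside 11.6%.

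Among the partners of the active zone 3 of 13 tested genes were called. Cask, a scaffold kinase, was up-regulated in the cochlea with a log2 fold change of -0.64. Ppfia4, a liprin, and Lin7a, a scaffold partner of Cask, were up-regulated in the vestibule at 0.69 and 0.66. Rimbp2, Erc1, Erc2 and the priming factors Unc13a, Unc13b and Unc13c, which act with bassoon and RIM at other synapses, did not pass.

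Of the fusion machinery 7 of 20 tested genes were called, 2 of them higher in the vestibule and 5 higher in the cochlea. In the cochlea they included the calcium sensor Syt1 (log2 fold change -1.71) and the SNARE regulator Cplx1 (-2.30), both best known from neurons. In the vestibule Vamp1, a vesicle SNARE, was up-regulated at 0.98, and Vamp2, the SNARE with the highest level per length, did not pass at 0.10. Cplx1 had 79.3, 75.6 and 26.4 CPM in the cochlea and 23.8, 2.73 and 13.7 CPM in the vestibule, with its lowest cochlear value in cochlea 3 and its highest vestibular value in vestibule 1, as for the sum of the neuron markers. Syt1 had 107, 131 and 134 CPM in cochlea 1, 2 and 3, an order unlike that of the summed neuron markers. Isl1 shared this order, and it was the only neuron marker not lowest in cochlea 3 among the cochlear libraries. The part of neurons in these differences was not tested.

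Conventional synaptic vesicle proteins are known from neurons, and synapsins among them are absent from the ribbon synapses of hair cells. Of the 8 genes, all tested, Sv2b, Syn1, Syn2 and Syp were up-regulated in the cochlea at log2 fold changes of -1.98, -1.61, -1.58 and -1.51, and Sv2c was up-regulated in the vestibule at 1.21. The median of the list was -1.11. Syn1 (22.6, 23.3 and 10.5 CPM) and Syp (35.2, 30.03 and 10.9 CPM) were lowest in cochlea 3 among the cochlear libraries, as was the sum of the neuron markers (678, 607 and 297 CPM), of which 5 of 10 were called in the cochlea. The part of neurons in this list was not tested. Sv2a, the member with the highest level per length, did not pass at -0.71.

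Of 14 tested genes that insert otoferlin into membranes or recycle vesicles, 4 were called. Snap91, an endocytic adaptor, and Dnm3, a dynamin, were up-regulated in the cochlea at -1.69 and -0.88. Amph, which encodes amphiphysin, and Dnm2 were up-regulated in the vestibule at 0.81 and 0.58. Wrb and Asna1, the pathway by which otoferlin is inserted into the membrane of the endoplasmic reticulum, did not pass at 0.09 and -0.10, while Otof itself was 4.24-fold higher in the vestibule. Ap2m1, the subunit of the endocytic adaptor AP-2 with the highest level per length in the list, did not pass either.

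In the list of genes for the contact with afferent fibres 3 of 9 tested genes were called, and not all genes of this list are postsynaptic. The synaptic adhesion genes Nlgn1 and Nrxn3 were up-regulated in the vestibule at log2 fold changes of 2.03 and 0.74, and the scaffold gene Homer1 in the cochlea at -0.65. Nlgn1 had 3.02 to 4.99 CPM in the cochlea and 14.4 to 19.1 CPM in the vestibule. The AMPA receptor genes Gria2, Gria3 and Gria4 and the scaffold gene Dlg4 did not pass.

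**Figure D5:**
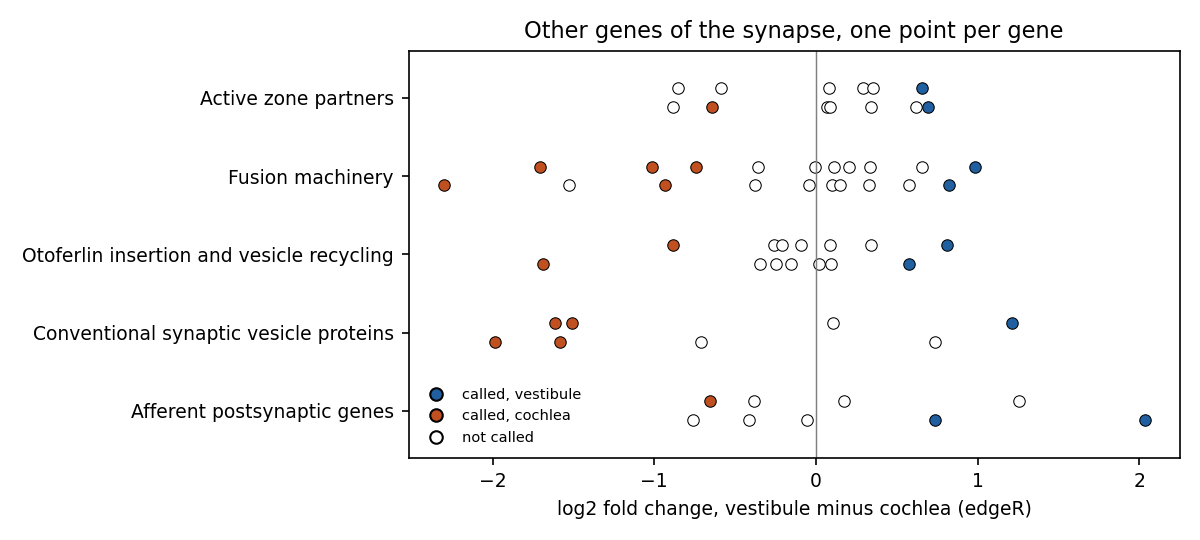
Log2 fold change (vestibule minus cochlea, edgeR) of the other synapse genes, with 1 point per tested gene in 5 lists, filled blue where up-regulated in the vestibule, orange where up-regulated in the cochlea and white where not called. The list of conventional synaptic vesicle proteins has 4 genes called on the cochlear side and 1 on the vestibular side. The list drawn as afferent postsynaptic genes is that for the contact with afferent fibres, and not all of its genes are postsynaptic.

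The profile of Otof over the 6 libraries was compared with that of all 14722 other tested genes, by the root mean square difference of log2 CPM centred on the mean of each gene. The nearest were Plxna4, Ttc21a, Trpm2, Ifi207 and Exoc3l4, at 0.16 to 0.21, where the median over all genes was 1.14. Of the other ribbon synapse genes Cacna1d was the nearest at 0.70 and rank 1243, and Slc17a8 lay at 0.91 and rank 3002. Among the hair cell markers Gfi1 was the nearest at rank 56, followed by Myo15 at rank 177. The other hair cell markers lay between rank 1822 (Myo7a) and rank 14476 (Pvalb). Of these, Pcdh15, Barhl1, Lhfpl5, Chrna9, Calb2 and Pvalb lay at 1.23 to 2.34, farther from Otof than the median over all genes. The order is a description of 6 libraries, and with 1 library left out 0 to 3 of the 5 nearest genes were kept.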

How the data were processed

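Cochlear and vestibular sensory epithelium was compared in 3 libraries each, grouped by the tissue in the labels. The authors prepared stranded mRNA libraries, aligned 100 bp read pairs to GRCm38 (Ensembl release 74) and counted reads per gene with htseq-count. The submitters' processing notes name TopHat2 2.1.0, SAMtools 0.1.18 and HTSeq 0.5.4p5, and how strand was treated in counting is not given in the sources used here. The deposited values are whole-number counts with no normalization, and a matrix of log2 RPKM by the authors for 14722 genes, in which the gene length implied by the counts and library sizes, without TMM, differed by at most 0.294% between libraries over 11426 genes compared. That length is the authors' and can differ from the GENCODE exon length. The 5 summary lines of each count file (18.5% to 20.6% of the listed counts) stayed out of library sizes and tests.

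CPM used the counts on genes. DE was tested with edgeR 4.0.16 in R 4.3.3 (quasi-likelihood test, TMM, at least 1 CPM in 3 libraries, Benjamini-Hochberg adjustment, FDR 0.05, no replicate block), which was also tested on simulated data. The SE was taken as the fold change over the root of the F statistic. Alternatives used DESeq2 1.42.0, limma-voom 3.58.1, other scalings, filters and thresholds, and each library left out. Log2 CPM for profiles used a prior count of 0.5. Ratios and shares were tested with two-sided exact permutation over libraries. Figures were drawn with matplotlib 3.10.9.

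The 9 genes and all lists were chosen with earlier results of these data known, so a list's count is a description and no set test was run. The genes named are the 9 genes, their paralogues, in each synapse list the 4 called genes of largest change and the gene of highest RPKM, the hair cell markers used for scaling and the 5 genes nearest to Otof. A few others are named as examples that did not pass, or, as Isl1, Calb2 and Pvalb, because their values stand beside a result, and these were chosen after their values were seen. Values for 1 further gene of the synapse lists are not reported here. Camlg of the recycling list could not be matched. Gene coordinates, exon lengths and transcripts are from GENCODE vM21 and promoter windows from RefSeq, both GRCm38, and 7 of the 9 genes have a window. The authors counted on an older annotation, so gene models may differ.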

Additional observations from a re-analysis of the deposited data

How the results depend on the processing

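Of 496 results recomputed under another setting, 425 kept their direction and their side of the threshold or, where they have no threshold, moved by less than 1 SD between libraries or a count by less than 1.5 times. Otof, Slc17a8 and Ctbp2 passed in all 15 alternatives. Cacna1d passed with upper quartile scaling (0.98), DESeq2 (0.94), limma-voom (0.99), no filter on low counts (0.95) and the length trend removed (0.97, chosen after seeing the data), and ranged from 0.77 to 1.36 with 1 library left out. Rims2 lost its call without TMM (-0.74), with a minimum of 5 CPM (-0.85) and with the replicate block (-0.95), so that 0 of the 9 genes were then called in the cochlea, and ranged from -1.23 to -0.65 with 1 library left out, when 0 to 1 gene was called in the cochlea and 3 to 4 in the vestibule. Pclo changed sign with limma-voom (-0.02), the replicate block (-0.093) and the length trend removed (-0.011), and ranged from -0.56 to 0.39 with 1 library left out, while Bsn ranged from -0.47 to 0.60. The cause was not tested.

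Over all genes, 1711 were called in the cochlea and 2325 in the vestibule, and with 1 library left out 925 to 1863 and 1342 to 2694. Without TMM the median log2 fold change over the tested genes moved from 0.00 to 0.13 and 68.8% of the calls were in the vestibule, against 57.6%. Of the pathway genes 5 to 19 were called in the cochlea and 5 to 9 in the vestibule with 1 library left out. Of the 26 tested paralogues 5 were called in the cochlea and 4 in the vestibule, beside 11.6% and 15.8% of all tested genes. With 1 library left out these counts were 3 to 5 and 1 to 6. A minimum of 5 CPM left 3 and 1 paralogues called, since fewer genes were tested. With all 12 hair cell markers the relative differences were 2.11 for Otof, 3.69 for Slc17a8, 0.98 for Cacna1d, 0.16 for Cacnb2, 0.83 for Ctbp2, 0.04 for Bsn, -0.07 for Pclo and -0.97 for Rims2. The difference in share was 4.60 percentage points for Cacnb2 and 12.4 for Ctbp2 with CPM in place of RPKM, and 10.2 for Ctbp2 with reference exon lengths. Without cochlea replicate 2 Bsn and Pclo exchanged ranks 7 and 8 in the cochlea, and with levels from GENCODE exon lengths (chosen after seeing the data) the cochlear ranks were 4 for Slc17a8, 6 for Rims2, 7 for Bsn and 8 for Pclo. Of the 5 genes nearest to Otof 3 were kept at a minimum of 5 CPM and 0 to 3 with 1 library left out.

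The labels number the replicates of both tissues alike, but same-numbered libraries did not deviate together (r across genes of -0.18, -0.26 and -0.48), so the numbers were not taken as pairs. With the replicate block 1009 genes were called in the cochlea, and 8 pathway genes in the cochlea and 4 in the vestibule. No sample correlated best with its own number.

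Counting error is small for most of these genes, but Bsn had 68 counts in vestibule 3 and 77 in cochlea 1. Cabp2 cannot be described below its limit.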
